A study of Mus musculus with 2 samples.

Results

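The nuclear genes Atp5a1, Atp5b, Atp5c1, Atp5d, Atp5o, Atp5g1, Atp5g2 and Atp5g3 encode subunits of the mitochondrial ATP synthase and were followed in heart tissue of B6CASTF1/J males at 2 months of age. B6CASTF1/J animals are the first generation of a cross between C57BL and the wild-derived CAST strain, and no treatment or genotype other than the cross is given. All rows of the deposited transcript tables that carried one of these symbols in an annotated gene were kept, whatever their class. They made up 8 of the 14518 annotated genes with a read, with 130 of 56790 transcript models in replicate 1 and 152 of 69026 models in replicate 2. The study is long-read RNA sequencing, in which a read is meant to span a transcript from end to end, with 2 µg of RNA put into each of 2 libraries that form 1 group. One label field gives the libraries to differently numbered animals and another gives both to the same animal, so the p-values compare these 2 libraries alone, against counting error, and do not speak of variation between animals. With a single group, the questions the design allows are how the members differ among themselves and how closely the 2 libraries match.

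ATP synthase uses the proton gradient made by the respiratory chain to join ADP and phosphate into ATP. Its F1 head holds alternating alpha and beta subunits, with the catalytic sites mainly on beta. A gamma and a delta subunit belong to the central stalk that turns inside the head, and a ring of subunit c in the inner membrane drives that turning. A side stalk, which includes the oligomycin sensitivity conferring protein (OSCP), holds the head still. Heart muscle is rich in mitochondria and depends on this enzyme for most of the ATP used in contraction. Of the genes described here, Atp5b encodes beta, Atp5a1 alpha, Atp5c1 gamma, Atp5d delta and Atp5o OSCP, while Atp5g1, Atp5g2 and Atp5g3 each encode a precursor of the same mature subunit c.

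The tables held 454069 reads in replicate 1 and 661958 reads in replicate 2, of which annotated nuclear genes received 430251 and 629896. Levels are counts scaled to that nuclear total (CPM), and a count of 0 allows up to 3 reads, or 6.97 CPM in replicate 1 and 4.76 CPM in replicate 2. Counting error alone is in these floors and in the intervals given, because copies of the same molecule cannot be told apart. Cardiomyocyte markers, such as the heart myosin gene Myh6 and troponin genes, summed to 48839 CPM in replicate 1 and 41361 CPM in replicate 2, with all 6 genes read, 1 called higher and 1 called lower in replicate 1, and liver markers to 0 and 4.76 CPM with 1 of 3 genes read. Markers of red blood cells differed between the libraries, with 11259 CPM in replicate 1 and 2981 CPM in replicate 2, and all 3 of 3 were called higher in replicate 1. Endothelial, fibroblast, mural and leukocyte lists summed to between 154 and 669 CPM in either library. In tissue RNA such as this, fewer cells of a type and less RNA per cell cannot be told apart.

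The genes of the F1 head were the most read members. Atp5b (ENSMUSG00000025393.12, mm10 chr10:128083273-128090391, plus strand) had 4204 reads or 9771 CPM in replicate 1 and 6930 reads or 11002 CPM in replicate 2. At 10386 ± 870 CPM (SD, n = 2) it ranked 4th among all annotated nuclear genes. Atp5a1 (ENSMUSG00000025428.15, chr18:77773729-77782869, plus strand) had 2971 reads or 6905 CPM in replicate 1 and 4621 reads or 7336 CPM in replicate 2, for a mean of 7121 ± 305 CPM and rank 9. Both beta values lay above both alpha values.

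The genes of the stalks were read less. Atp5c1 (ENSMUSG00000025781.14, chr2:10056016-10080510, minus strand) had 720 reads or 1673 CPM in replicate 1 and 1231 reads or 1954 CPM in replicate 2, for 1814 ± 199 CPM. Atp5o (ENSMUSG00000022956.11, chr16:91925214-91931687, minus strand) had 887 reads or 2062 CPM and 1230 reads or 1953 CPM, for 2007 ± 77.0 CPM. The values of Atp5o and Atp5c1 overlapped between the libraries, so their order was not resolved. Atp5d (ENSMUSG00000003072.15, chr10:80138632-80145818, plus strand) was lower than both, with 299 reads or 695 CPM in replicate 1, 457 reads or 726 CPM in replicate 2 and a mean of 710 ± 21.6 CPM.

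The 3 genes of subunit c differed widely. Atp5g1 (ENSMUSG00000006057.15, chr11:96068852-96075670, minus strand) had 1210 reads or 2812 CPM in replicate 1 and 1851 reads or 2939 CPM in replicate 2, for 2875 ± 89.3 CPM. Atp5g3 (ENSMUSG00000018770.9, chr2:73908447-73911326, minus strand) had 540 reads or 1255 CPM and 804 reads or 1276 CPM, for 1266 ± 15.1 CPM. Atp5g2 (ENSMUSG00000062683.11, chr15:102662864-102672352, minus strand) was the least read member, with 107 reads or 249 CPM, 202 reads or 321 CPM and a mean of 285 ± 50.9 CPM. In the order from Atp5b down to Atp5g2, each pair of neighbours other than Atp5o and Atp5c1 was separated in both libraries.

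**Figure D1:**
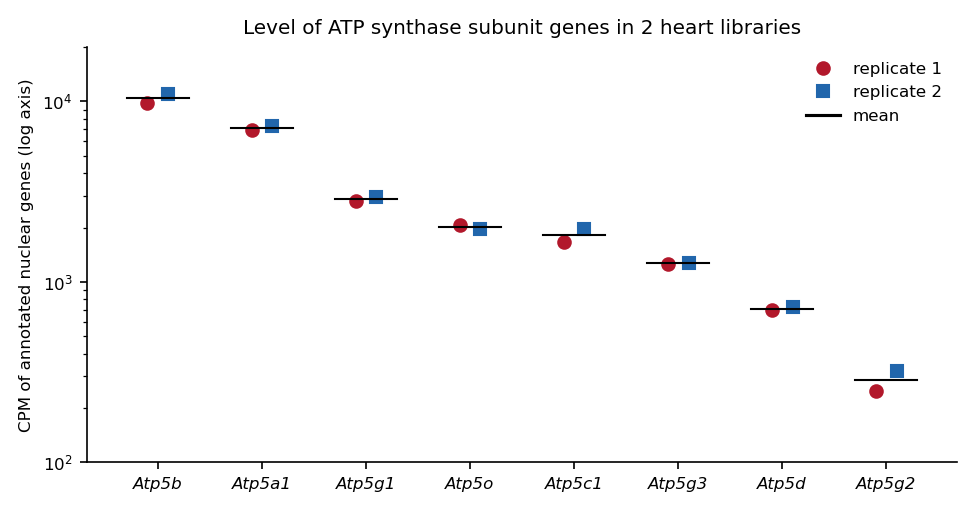
Level of each member gene in replicate 1 (circles) and replicate 2 (squares), in CPM on a log axis, with the mean as a line and the genes ordered by mean. Atp5b leads at 10386 CPM and Atp5g2 is last at 285 CPM, and the libraries cross in order only for Atp5o and Atp5c1.

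Each of those reads stands for a transcript, and counts were not divided by transcript length. When the mean CPM was divided by the annotated length of the most read transcript, Atp5b stayed first at 5421 CPM per kb. Atp5g1, whose main transcript is 596 bases long, came next at 4825 CPM per kb, ahead of Atp5a1 with 2471 bases and 2882 CPM per kb. Atp5o followed at 2395, Atp5g3 at 1773, Atp5c1 at 1711, Atp5d at 763 and Atp5g2 at 389 CPM per kb. The place of Atp5b over Atp5a1 also depended on the class of reads. With reads of known transcripts alone, Atp5a1 had 6447 and 6841 CPM and Atp5b had 5934 and 6509 CPM in replicates 1 and 2, so alpha led in each library, although the ranges of the 2 genes overlapped.

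All 8 members together took 25422 CPM in replicate 1 and 27506 CPM in replicate 2, a mean of 26464 ± 1473 CPM or 2.65% ± 0.147 of nuclear reads. The other ATP synthase genes gave the setting. All 17 of them had a read in at least 1 library, and together they took 13467 CPM in replicate 1 and 13818 CPM in replicate 2. Atp5k, a small membrane subunit, averaged 1706 ± 0.663 CPM, Atp5j, the coupling factor 6 of the side stalk, 1692 ± 36.3 CPM, and Atp5f1, subunit b of the side stalk, 1668 ± 157 CPM. These were the highest 3 of that list, and each was below Atp5o. Few reads were assigned to the mitochondrial partners in the proton channel: mt-Atp6 had 108 and 192 reads, and mt-Atp8 had 1 and 0 reads. How transcripts of mitochondrial DNA were captured and assigned to these symbols was not examined, so the counts do not give their level beside the nuclear genes. The nuclear subunits of neighbouring complexes took 9216 and 9957 CPM for the 7 core genes of complex I, 17262 and 17855 CPM for 9 genes of complex III, and 26389 and 27025 CPM for 10 genes of complex IV.

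Between the libraries, member levels lay close together and mostly a little lower in replicate 1. Atp5b was the only member past the threshold, with a log2 ratio of replicate 1 over replicate 2 of -0.17, a ratio of 0.888 (95% interval 0.855 to 0.923) and an adjusted p of 4.55e-07 (exact two-sided binomial test, Benjamini-Hochberg over 8095 genes). Over all genes tested, 0.618% were called in either direction, 0.296% as lower and 0.321% as higher in replicate 1. The test covers counting error only, and small differences pass it for genes with many reads. Atp5c1 had a log2 ratio of -0.22, a ratio of 0.856 (0.780 to 0.940) and an adjusted p of 0.109 in the same exact test. It was called under 3 other settings, with adjusted exact p of 0.0137 with TMM scaling, 0.0317 with DESeq2 size factors and 0.0276 with known transcripts alone. Atp5a1 had a log2 ratio of -0.09 and an adjusted exact p of 0.406, but 0.0219 with TMM scaling. Under TMM, 35.9% of the genes called were higher in replicate 1, against 52.0% with the nuclear total. Red blood cell markers and Myh6 ran the other way: all 3 red blood cell markers were higher in replicate 1, and Myh6 had 36490 CPM in replicate 1 and 27652 CPM in replicate 2. The other 5 cardiomyocyte markers had lower levels in replicate 1, and of these Pln was called (log2 ratio -0.15, adjusted exact p of 0.00577). The part of these genes in the members' ratios was not tested.

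Log2 ratios of the other members were -0.36 for Atp5g2, -0.06 for Atp5g1 and Atp5d, -0.02 for Atp5g3 and 0.08 for Atp5o, none of them called. In all, 7 of 8 members had a lower level in replicate 1, as did 49.0% of all genes tested, and the median log2 ratio was -0.08 for the members and 0.01 for all genes. At an unadjusted p under 0.05 there were 4 members, against 7.14% of all genes. None of the 16 other ATP synthase genes with enough reads was called, and their median log2 ratio was 0.01. For complexes I, III and IV the medians were -0.09, -0.02 and -0.04, with 0, 1 and 0 genes called. Levels were lower in replicate 1 for 7 of 7, 7 of 9 and 8 of 10 of these genes, and for 7 of the 16 other ATP synthase genes. With a minimum of 50 summed reads, the median over all genes was -0.03.

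The deposited models carry a class. Known models match a GENCODE M21 transcript. Incomplete splice matches (ISM) hold a consecutive part of its introns, or part of one exon. NIC models join known splice sites in an unlisted way, NNC models have at least 1 unlisted site, and Genomic models do not follow the splice sites of the gene. Known models took 79.1% of the members' reads in replicate 1 and 78.2% in replicate 2, against 75.7% and 75.6% of all nuclear reads. The share was highest in Atp5g1, at 96.1% ± 0.383, followed by Atp5a1 at 93.3% ± 0.0856, Atp5d at 91.6% ± 1.06 and Atp5o at 90.3% ± 1.48. Atp5c1 stood at 87.2% ± 2.07 and Atp5g3 at 80.4% ± 0.291. Atp5b and Atp5g2 were far lower, at 59.9% ± 1.11 and 41.0% ± 4.11. The median over members was 88.7%, against 84.5% over the 3329 genes with 20 or more reads in both libraries, and 5 of 8 members were above that median.

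No member's known share was called between the libraries. The smallest Fisher exact p was 0.0646, for Atp5c1, and all 8 adjusted p were 1, with 0.0901% of all genes called and 0 members at an unadjusted p under 0.05. Among the other ATP synthase genes the median known share was 96.0%, with 6.79% in Atp5j and 0.0746% in Atp5f1.

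**Figure D2:**
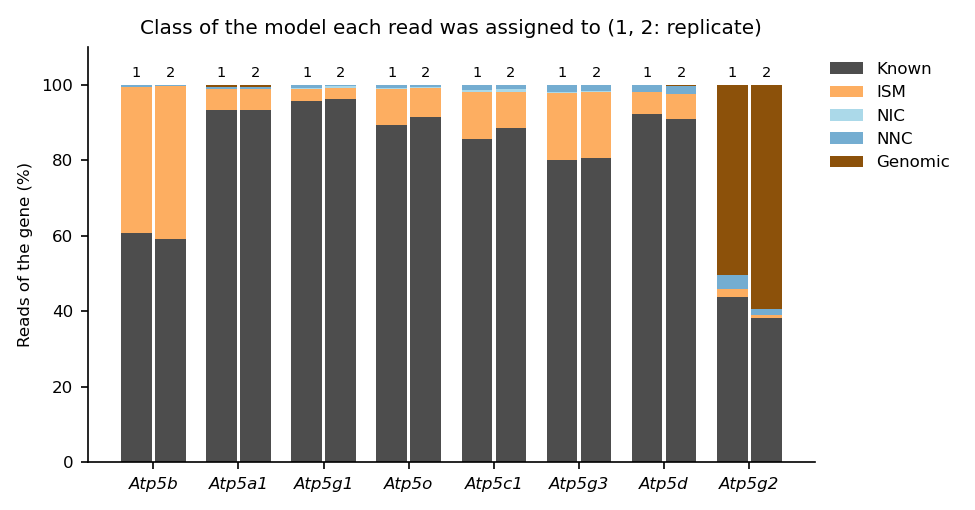
Share of each member's reads in each model class, in percent, with replicate 1 left of replicate 2 for every gene. Known models make up 96.1% of Atp5g1 reads on average, while Atp5b has an ISM share of 39.6% and Atp5g2 a Genomic share of 54.9%.

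In Atp5b most reads outside Known models came from 1 short model. It joined the last part of exon 9 to exon 10, was 372 bases long and spanned chr10:128089041-128090272. It held 1467 of 4204 reads (34.9%) in replicate 1 and 2546 of 6930 reads (36.7%) in replicate 2. Among 114 genes whose count reached 500 in both libraries, the largest model outside Known had a median share of 3.13%, and Atp5b ranked 16th. The 80 bases of exon 9 around the first base of the model are shown because this model holds most Atp5b reads outside Known models. They run from chr10:128089001-128089080 (mm10, plus strand, GENCODE M21 transcript), and capitals mark the bases the model includes:
Atp5b exon 9: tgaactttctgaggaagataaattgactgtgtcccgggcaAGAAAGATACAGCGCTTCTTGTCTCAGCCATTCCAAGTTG
The first capital is also the annotated first base of the short transcript Atp5b-204, but the model uses the splice acceptor of the main transcript.

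Coverage along the Atp5b exons showed the same step, with an exon counted as held where a model covered at least 50% of it. Exon 1 was in 61.0% of reads in replicate 1 and 59.2% in replicate 2, and exon 8 in 64.1% and 62.4%. Exon 9, right after it, was in 99.3% in each library. The values thus stepped between exons 8 and 9, but the 2-exon model counts as holding exon 9 although it starts inside it, at chr10:128089041. The model lacks the first part of that exon, and where its single reads start is not known. The full-length transcript Atp5b-201 had 2544 and 4083 reads, and the other known form that was read, Atp5b-205, had 9 and 17. The annotation labels Atp5b-205 as a retained-intron type, but in replicate 2 no read was assigned to a model holding a whole intron of Atp5b-201.

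In the other members the last exon was held, by the same 50% rule, in 99.0% of reads or more in every library. A held exon need not be complete. In Atp5a1 the share changed gradually, with exon 1 in 93.4% of replicate 1 reads and 93.2% of replicate 2 reads. Its reads outside Known models were spread over a ladder of ISM models that each began at a later exon, the largest with 52 and 55 reads. Atp5c1 had a step between exon 6, in 88.3% and 92.4% of reads, and exon 7, in 99.0% and 99.8%. A model with only exons 7 to 9 held 77 reads (10.7%) in replicate 1 and 90 reads (7.31%) in replicate 2. In Atp5o a single-exon model took 63 and 73 reads, and exon 1 was in 89.3% and 91.0%. Atp5d had exon 1 in 94.3% and 92.8% of reads.

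Atp5g2 showed the largest step. Its first exon was in 47.7% of replicate 1 reads and 39.6% of replicate 2 reads, and its last exon in 100% and 99.0%. A single-exon Genomic model of 151 bases inside the last exon took 54 of 107 reads (50.5%) and 120 of 202 reads (59.4%). That exon has 265 bases, so these reads count as holding it although their model does not cover all of it. Only 51 and 80 reads joined exon 1 to exon 2.

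**Figure D3:**
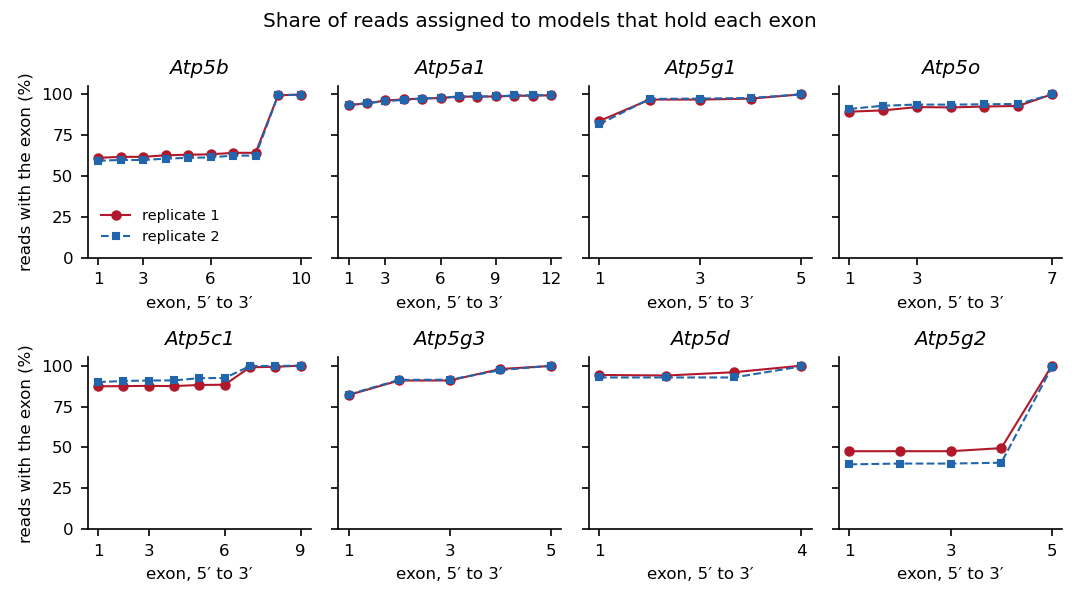
Percent of each member's reads assigned to models that hold each exon of its most read transcript, with exons numbered from the 5′ end, for replicate 1 (circles, solid) and replicate 2 (squares, dashed). An exon counts as held where a model covers at least 50% of it. Atp5b steps up between exons 8 and 9 and Atp5g2 before its last exon, while Atp5a1 rises gently from 93.3% to 99.4%. The short models behind both steps start inside the exon that follows the step.

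Missing 5′ exons were the main kind of incompleteness. ISM reads that kept the 3′ part of a transcript numbered 1960 in replicate 1 and 3270 in replicate 2, against 3 and 6 that kept the 5′ part. The 2-exon Atp5b model alone held 1467 of the 1960 and 2546 of the 3270, and it also weighs on the shares of reads given below. The ends of the models cannot be read as the ends of single reads: 98.2% and 98.4% of member reads outside Known lay in models whose 5′ end fell on an annotated exon boundary. Of 169 distinct spliced intron chains outside Known models, 55 were found in both libraries (32.5%). Those 55 held 97.1% of such reads in replicate 1 and 97.6% in replicate 2. Recurrence differed by class, with 32 of 47 ISM, 4 of 21 NIC and 19 of 101 NNC chains in both libraries. NNC models held only 80 and 103 reads in all, and in 63.8% and 63.1% of these the unlisted splice site was within 10 bases of an annotated one.

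The gamma subunit gene Atp5c1 has an alternative exon near its 3′ end that is known, in cattle and humans, to be skipped in heart and skeletal muscle and included in most other tissues. In the mouse annotation it is exon 9 of Atp5c1-203, 37 bases at chr2:10056770-10056806 on the minus strand, and Atp5c1-201 joins exon 8 straight to the last exon. In both libraries the exon was nearly always skipped. Among reads that showed the choice, 11 of 712 included it in replicate 1, or 1.54% (Clopper-Pearson 95% interval 0.774 to 2.75), and 14 of 1222 in replicate 2, or 1.15% (0.628 to 1.91). The mean was 1.35% ± 0.282 (SD, n = 2), and the difference between the libraries was not past the threshold (Fisher's exact test, two-sided p = 0.532). These reads were 98.9% and 99.3% of all Atp5c1 reads, so the short 3′ models count here as well. Of the inclusion reads, 11 and 13 belonged to the known transcript Atp5c1-203, and skipping was called in 701 and 1208 reads.

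The exon carries the stop codon when it is included, so both forms end in different bases. They are shown with the annotated stop codon in capitals, 5′ to 3′ on the transcript, from the GENCODE M21 transcripts (mm10). The first line is the cassette exon itself, and the others run from chr2:10059025 in exon 8, on the minus strand, to the stop:
Atp5c1-203 exon 9: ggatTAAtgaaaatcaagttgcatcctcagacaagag
Atp5c1-203 exon 8 into exon 9: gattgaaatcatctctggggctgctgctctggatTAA
Atp5c1-201 exon 8 into the last exon: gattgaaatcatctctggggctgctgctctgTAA
With the exon the reading frame has 298 codons before the stop, and without it 297. The included exon leaves 30 of its own bases after the stop.

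The first exons of Atp5g1 and Atp5g3 were the other site of isoform choice among the members. Atp5g1-202 took 1001 of 1159 Known reads (86.4%, 84.3 to 88.3) in replicate 1 and 1500 of 1783 (84.1%, 82.3 to 85.8) in replicate 2. Atp5g1-201, which starts upstream and has an annotated length of 4715 bases, took 139 reads (12.0%) and 242 reads (13.6%). Atp5g1-204 had 13 and 31 reads and Atp5g1-203 had 6 and 10. With 4 exons, Atp5g1-204 has no junction into exon 2, so its reads show no choice of first exon. Since a known transcript is listed at its annotated length, these counts do not show that the long 3′ end of Atp5g1-201 was read. The first exons end in different bases and join the same exon 2, and 14 bases on each side of the joint are shown, with exon 1 in capitals (mm10, minus strand; donor ends at chr11:96075557, chr11:96075627 and chr11:96075427):
Atp5g1-202: GAGTGGGAGTGCAGattgaaaaatgcag
Atp5g1-201: GCTAAAGCTGGGAGattgaaaaatgcag
Atp5g1-203: GTTAATTACCAACGattgaaaaatgcag
Counting every class of model, the donor of Atp5g1-202 was used by 87.0% of reads that joined exon 1 to exon 2 in replicate 1 and 85.5% in replicate 2, and that of Atp5g1-201 by 12.1% and 13.8%.

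Atp5g3 used a pair of donors 10 bases apart in the same first exon. Atp5g3-201 took 334 of 433 Known reads (77.1%, 72.9 to 81.0) in replicate 1 and 489 of 648 (75.5%, 72.0 to 78.7) in replicate 2. Atp5g3-202 took 98 reads (22.6%) and 159 reads (24.5%). The same 28 bases around the joint differ as follows (chr2, minus strand, exon 1 in capitals):
Atp5g3-201: CGCCGCCTCGGGAGagaggaagcgggag
Atp5g3-202: GGAGGTAAGCGAAGagaggaagcgggag
The exact intron 1 of Atp5g3-201 was spliced out in 338 and 492 reads. A 4-exon ISM model whose first exon runs across this intron had 45 and 71 reads. That is 11.7% of both kinds together in replicate 1 and 12.6% in replicate 2. Model ends cannot be read as the ends of single reads, so these shares do not show that each such read crossed intron 1. The 100 and 160 reads spliced from the Atp5g3-202 donor are not in these shares, and counting them as spliced would lower both. Counted in the same way, the other introns of the members' most read transcripts were kept in at most 0.473% of reads, the value of Atp5d intron 1 in replicate 2. In each of the other members at least 99% of reads spliced into exon 2 used a single donor.

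Known transcripts of the remaining members were close to uniform. Atp5a1-201 took all 2774 and 4309 Known reads of alpha, and Atp5d-201 took 276 of 276 and 414 of 415 of delta, the remaining read being Atp5d-202. Atp5o-201 had 791 and 1119 reads, against 1 and 2 for the decay-targeted Atp5o-206, 0 and 2 for Atp5o-204 and 0 and 1 for Atp5o-203. Atp5g2-202 had 47 and 76 reads and Atp5g2-201 had 0 and 1, and Atp5g3-204 had 1 and 0. Of 13 member transcripts tested for a difference in use between the libraries, 0 were called and 0 had an unadjusted p under 0.05 (Fisher's exact test, smallest p = 0.101, adjusted p of 1), with 0.0972% of all transcripts called.

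**Figure D4:**
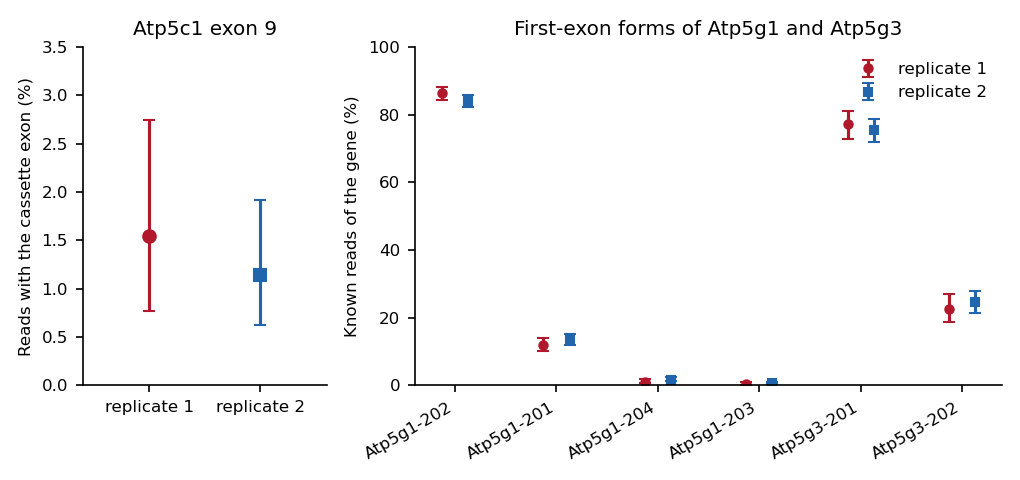
Left, percent of informative Atp5c1 reads that include the cassette exon; right, share of the Known reads of Atp5g1 and Atp5g3 taken by each first-exon form, with circles for replicate 1, squares for replicate 2 and bars for Clopper-Pearson 95% intervals. Inclusion is 1.54% in replicate 1 and 1.15% in replicate 2, and the intervals of the libraries overlap for every form.

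Because Atp5g1, Atp5g2 and Atp5g3 make the same mature ring subunit, their reads were also set against each other. Together they had 1857 reads in replicate 1 and 2857 in replicate 2, or 4426 ± 155 CPM. Atp5g1 supplied 65.2% in replicate 1 (62.9 to 67.3) and 64.8% in replicate 2 (63.0 to 66.5), and Atp5g3 supplied 29.1% (27.0 to 31.2) and 28.1% (26.5 to 29.8). Atp5g2 supplied 5.76% (4.75 to 6.92) and 7.07% (6.16 to 8.07). With Known reads alone the shares were 70.7% and 71.1% for Atp5g1, 26.4% and 25.8% for Atp5g3, and 2.87% and 3.07% for Atp5g2, so the order was kept while the share of Atp5g2 was lower by more than 1.5 times.

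**Figure D5:**
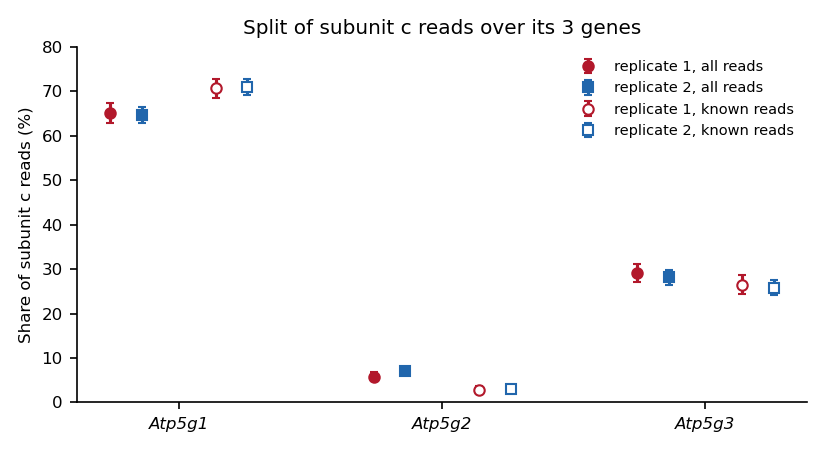
Share of subunit c reads from each of its 3 genes, in percent, for all reads (filled) and Known reads (open), with circles for replicate 1, squares for replicate 2 and Clopper-Pearson 95% intervals as bars. Atp5g1 supplies about 65% of all reads and 71% of Known reads, and Atp5g2 supplies the least in each case.

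The annotated coding sequences show how far the coding bases of these near-identical products differ. This does not bear on the single-exon Genomic model of Atp5g2, with 54 reads in replicate 1 and 120 in replicate 2. That model spans chr15:102662864-102663014, past the last coding base before the stop codon, chr15:102663017 on the minus strand. How its reads could be told apart from those of other genes was not tested. From the end of the coding sequence backwards, Atp5g1 and Atp5g2 encode the same amino acids over 78 codons, Atp5g1 and Atp5g3 over 86, and Atp5g2 and Atp5g3 over 78. Over those stretches the bases were the same at 84.6%, 79.1% and 77.4% of positions. The last 60 coding bases are shown because they encode the same end of the ring subunit, with capitals on the 18 positions that are not the same in all of them (mm10, minus strands, chr11:96073107-96073166, chr15:102663017-102663076 and chr2:73908596-73908655):
Atp5g1: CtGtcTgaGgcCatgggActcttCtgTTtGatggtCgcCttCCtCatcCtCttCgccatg
Atp5g2: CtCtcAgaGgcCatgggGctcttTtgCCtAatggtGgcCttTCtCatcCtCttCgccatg
Atp5g3: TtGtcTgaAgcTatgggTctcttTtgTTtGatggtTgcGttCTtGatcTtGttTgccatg
Reads were used as the authors assigned them. Of 5 annotated pseudogenes with an Atp5 symbol, 1 had reads, with 2 in each library. Pseudogenes under other symbols were not examined, so the split of reads between a gene and such copies is uncertain. A second Atp5o identifier, with 1 and 0 reads, was summed with the first. Haus1, on the opposite strand to Atp5a1, had 11 and 22 reads, and antisense models at Atp5g2 had 1 and 2.

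Promoter sequences from RefSeq (GRCm38.p6, 250 bases before to 50 after a gene's start) were at hand for 7 of 8 members, with no entry for Atp5a1. They were searched on both strands for letters bound by factors of mitochondrial genes. The central NRF1 letters CGCATGCG were in 1 of 7, Atp5g2, against 1.87% of 32851 promoters, and the ERR letters TCAAGGTCA in 1 of 7, Atp5g3, against 0.423%. The ETS letters CCGGAAGT were in 0 of 7, against 3.89%, and the GC box GGGGCGGG in 2 of 7, Atp5b and Atp5g2, against 16.5%. No match overlapped another. The median GC content was 55.3% in member promoters and 52.7% in all. A match is a description of letters, not of a bound site. The matches of the least read and the middle gene of subunit c are shown with the motif in capitals, Atp5g2 at chr15:102671048-102671128 and Atp5g3 at chr2:73911330-73911418, both on the minus strand:
Atp5g2: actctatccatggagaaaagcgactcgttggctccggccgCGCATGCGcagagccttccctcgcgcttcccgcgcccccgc
Atp5g3: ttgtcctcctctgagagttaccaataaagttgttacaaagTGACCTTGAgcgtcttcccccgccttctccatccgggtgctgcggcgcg
The Atp5g3 match lies on the strand opposite to the gene. In Atp5g2 the NRF1 letters and the GC box begin at -41 and -5 from the RefSeq start. Both lie inside annotated exon 1 of Atp5g2-202, its most read transcript, at chr15:102671018-102671127. They are thus downstream of the annotated start of that transcript.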

How the data were processed

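The authors deposited 1 table of raw counts per library, giving whole numbers of long reads per transcript model, with no normalization or pooling. Reads were aligned to mm10 and set against GENCODE M21, and models were assigned with TALON, per the file headers and the text files beside them. Aligner, read correction and program versions are "not given in the sources used here". The members and gene lists were chosen with earlier results of these data known. All 8 members are named. Other ATP synthase genes are named if called, among the highest 3 or unread, though mt-Atp6 and mt-Atp8 and low-share genes were named after their values were seen. Reads were summed per gene symbol and divided by the annotated nuclear total. Levels were compared by an exact binomial test over genes with at least 10 summed reads, shares by Fisher's exact test with at least 20 reads per library, with 0.5 reads added for log2 ratios and calls at an adjusted p under 0.05. Scaling by edgeR 4.0.16 (TMM) and DESeq2 1.42.0 was tried, as were other classes and minimums. Fits ran in Python 3.11.15 and R 4.3.3 and were tested on simulated data. Results cover counting error only.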

Additional observations from a re-analysis of the deposited data

How the results depend on the processing

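The summed level of the members, their known share and the Atp5c1 cassette share moved by less than 1 SD between the libraries under each alternative run. For the runs that leave out a replicate this is fixed in advance with 2 libraries, so those runs are no test. Of the single-gene levels, 52 of 56 values under other settings kept their direction and side of the threshold, and none changed sign. Changing the minimum count leaves the ratios as they are by construction, so only the side of the threshold could change in those runs. The number of members called between the libraries was 1 with the nuclear total, where 50 of 8095 genes were called, and 3 with TMM scaling, where 64 of 8095 were. It was 2 with DESeq2 size factors (53 of 8095 genes) and 2 with known transcripts alone (41 of 6362 genes); the cause was not tested. No member's known share was called under any setting, while the count over all genes was 3, and 27 without Genomic models. With known transcripts alone the mean subunit c shares were 70.9% for Atp5g1, 2.97% for Atp5g2 and 26.1% for Atp5g3. The mean log2 ratio of Atp5b over Atp5a1, an alternative chosen after seeing the data, was 0.54 ± 0.0593. It was -0.10 with known transcripts alone and -0.10 without the 2-exon Atp5b model, which takes out its reads by construction, and 0.91 per kb. Leaving out each replicate gave 0.50 to 0.58. No paired analysis was possible because the series has 1 group. Atp5g2 has the fewest reads and so the widest intervals.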
